A study of Homo sapiens with 6 samples.

Results

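CAPN5 encodes a protease of the calpain family, and the genes described here are CAPN5 together with other calpains and their partner proteins in LNCaP prostate cancer cells with reduced MBD2. The genes were named by symbol: CAPN5, CAPN1, CAPN2, CAPN7, CAPN10, CAPN13, the small subunit gene CAPNS1 and the calpastatin gene CAST. A gene was taken where an array feature was annotated with its symbol alone, and 7 of the 8 had such a feature, 1 each, of 16704 genes measured in this way. The feature of CAPN10 also carries the symbol GPR35, so CAPN10 was not part of the comparison. CAPN5 was picked because its mean differed between the groups, and its values, with their standard error and interval, are therefore given as a description without a test.

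In 1 set of clones a short hairpin RNA targeted MBD2, which encodes a reader of methylated CpG dinucleotides that takes part in silencing genes. The control clones held a scrambled hairpin, and both kinds were LNCaP transfectants made with the siLentGene-2 vector and selected by neomycin resistance. There were 3 MBD2 knockdown clones and 3 scrambled control clones, each measured once on an Affymetrix human Gene ST array with cytoplasmic RNA. Differences between clones of a group add to the error of every comparison, and the number of arrays limits the precision. The sample titles number the replicates and do not say whether each clone descends from its own transfected cells. Knockdown clones 2 and 3 were the most alike of all pairs of arrays (SD of their difference over genes 0.185). Whether they are independent was not tested, so the knockdown group may hold fewer than 3 independent lines.

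Calpains are cysteine proteases that cut their substrates at few sites when calcium rises, which changes what the substrate does more often than it destroys it. The classical enzymes pair the large subunit CAPN1 or CAPN2 with the small subunit CAPNS1, and calpastatin, the product of CAST, inhibits both. CAPN5 is a non-classical calpain that lacks the calcium-binding EF-hand domain of the classical enzymes, is related to the nematode protein TRA-3 and is the gene of an inherited inflammatory disease of the retina. In prostate cells classical calpains are known for cutting cell adhesion and cytoskeletal proteins.

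The values are log2 expression values per feature after RMA, so a difference of 1 is a 2-fold difference, and levels were not compared between genes. Where 3 values are given for a group, they stand in the order of its clones 1, 2 and 3. The log2 value of MBD2 was 7.68, 7.84 and 7.81 in the knockdown clones, against 8.73, 9.24 and 9.20 in the controls, so the targeted gene followed the labels in every clone. Knockdown clone 1 stood apart: its values spread less over genes (SD 2.00, against 2.05 to 2.07 in the other arrays). Its difference from knockdown clones 2 and 3 had an SD of 0.316 and 0.35 over genes, while those clones differed from each other with an SD of 0.185. Against control clones 1, 2 and 3 the SD was 0.31, 0.273 and 0.335, so knockdown clone 1 was nearer to control clone 2 than to its own group. The 5 measured luminal prostate markers (KLK2, KLK3, HOXB13, KRT8 and KRT18) lay above the lower quartile of all features on every array. Their mean log2 level was 9.19, 9.68 and 9.65 in the knockdown clones, against 9.22, 9.68 and 9.37 in the controls. Single markers varied more between clones than this mean. KLK3 had 8.66, 10.30 and 10.44 in the knockdown clones, against 8.67, 10.12 and 8.48 in the controls. KRT18 alone of the 5 separated the groups, lower in the knockdown clones by 0.17, where 8.87% of all genes lay wholly below the controls. The 3 measured haematopoietic markers lay below that quartile on every array, while of 5 mesenchymal markers only ZEB1 did. Of 3 measured basal epithelial markers, KRT5 lay below it on 5 arrays, and their mean log2 level was 5.26, 5.19 and 5.19 in the knockdown clones, against 5.13, 4.98 and 5.17 in the controls. The basal means did not overlap, but only narrowly, with 5.19 in knockdown clone 3 and 5.17 in control clone 3. By gene only KRT5 separated the groups, with a difference of 0.17, where 6.57% of all genes lay wholly above the controls. KRT14 (0.18) and ITGB4 (0) overlapped. The part of these markers in the results below was not tested. The other markers of the luminal list were not analysed here.

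All 3 knockdown clones had more CAPN5 RNA than any control. CAPN5 stood at 8.21, 8.28 and 8.55 on the log2 scale in the knockdown clones, against 7.23, 7.21 and 6.69 in the controls. The knockdown clones lay close together at 8.34 ± 0.18, and the controls at 7.04 ± 0.31 (mean ± SD, n = 3 each), with control clone 3 the lowest of the 6. The difference, knockdown minus control, was 1.30 on the log2 scale with a standard error of 0.17, which is 2.46-fold with a 95% confidence interval of 1.89 to 3.22-fold. The lowest knockdown clone and the highest control clone differed by almost 1 log2 unit. Of all genes, 40, or 0.239%, had a mean at least 2-fold higher in the knockdown clones. Unlike for several genes below, knockdown clone 1 did not depart from its group, and leaving it out gave a difference of 1.37. Since each array measured a whole clone, more cells expressing CAPN5 and more RNA per cell cannot be told apart.

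**Figure D1:**
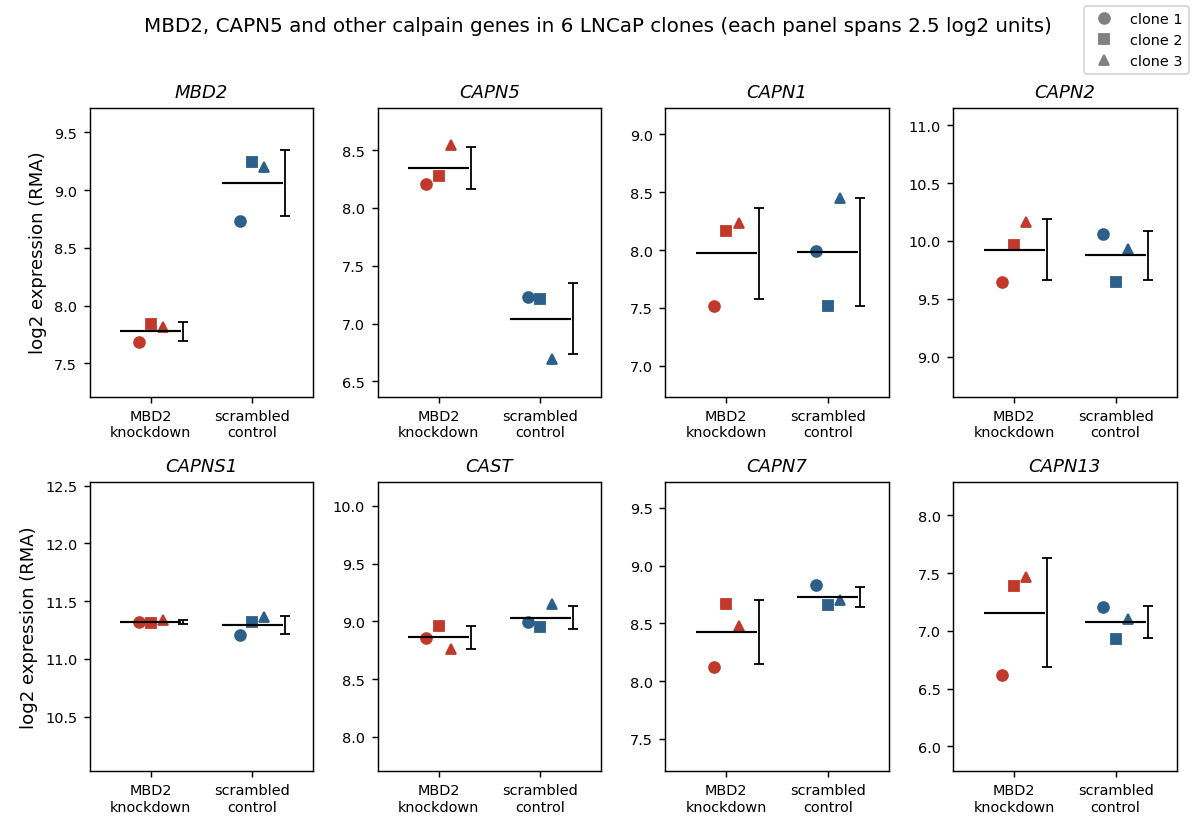
Log2 expression of MBD2, CAPN5 and the other measured calpain genes in each clone, with MBD2 knockdown left of scrambled control in every panel. Horizontal lines are group means, bars are ± 1 SD (n = 3 clones), symbols mark clone numbers within a group, and every panel spans the same range. CAPN5 separates the groups at 8.21 to 8.55 against 6.69 to 7.23, while the groups overlap in the 6 genes from CAPN1 to CAPN13.

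None of the other 6 genes separated the groups. CAPN5 was picked for its difference and is left out of these counts. Of the 6, 0 had knockdown values wholly above the controls, where 6.57% of all genes tested did. Likewise 0 had them wholly below, where 8.87% of all genes did. In limma's moderated test with Benjamini-Hochberg adjustment over 16704 genes, 0 of the 6 genes other than CAPN5 passed an adjusted p under 0.05, where 0% of all genes passed. At an unadjusted p under 0.05 stood 9.39% of all genes, 3.93% as higher and 5.45% as lower. None of these 6 had an unadjusted p under 0.05. The intervals below state how large a difference these arrays leave possible.

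The classical enzymes varied between clones more than between groups. CAPN1, the large subunit of mu-calpain, had log2 values of 7.52, 8.17 and 8.23 in the knockdown clones, against 7.99, 7.51 and 8.45 in the controls. Both groups spanned about the same range, and the mean difference was -0.012 with a 95% confidence interval of -0.64 to 0.61. The spread of CAPN1 within groups (pooled SD 0.43) was larger than that of 97.7% of all genes, so a difference of up to 1.53-fold higher or down to 0.643-fold lay within the interval. Its sign depended on single clones: the mean was higher in the knockdown clones by 0.22 when either knockdown clone 1 or control clone 3 was left out.

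CAPN2, the large subunit of m-calpain, stood at 9.64, 9.96 and 10.17 in the knockdown clones, against 10.06, 9.64 and 9.93 in the controls. The lowest clone of each group had the same value to 2 decimals. The difference was 0.05, with an interval of -0.33 to 0.42 (adjusted p = 0.956, limma).

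CAPNS1, the small subunit that both enzymes need, was the steadiest of the 7 genes. Log2 values were 11.32, 11.31 and 11.34 in the knockdown clones, against 11.20, 11.32 and 11.36 in the controls. Its pooled SD of 0.06 was larger than that of only 8.75% of all genes. The difference was 0.03 with an interval of -0.15 to 0.21, or 0.899 to 1.16-fold, which makes this the tightest bound among the 7 genes.

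CAST encodes the inhibitor of the classical enzymes. It had log2 values of 8.86, 8.96 and 8.77 in the knockdown clones, against 9.0, 8.95 and 9.15 in the controls. Knockdown clones 1 and 3 lay below every control, and knockdown clone 2 overlapped control clone 2. The difference was -0.17 with an interval of -0.39 to 0.04 (adjusted p = 0.626, limma). In the RefSeq gene table CAST overlaps ERAP1, an aminopeptidase gene of antigen processing, whose difference was -0.15 (interval -0.36 to 0.07). It also overlaps ELL2, whose difference was -0.10 with a wider interval of -0.81 to 0.61.

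**Figure D2:**
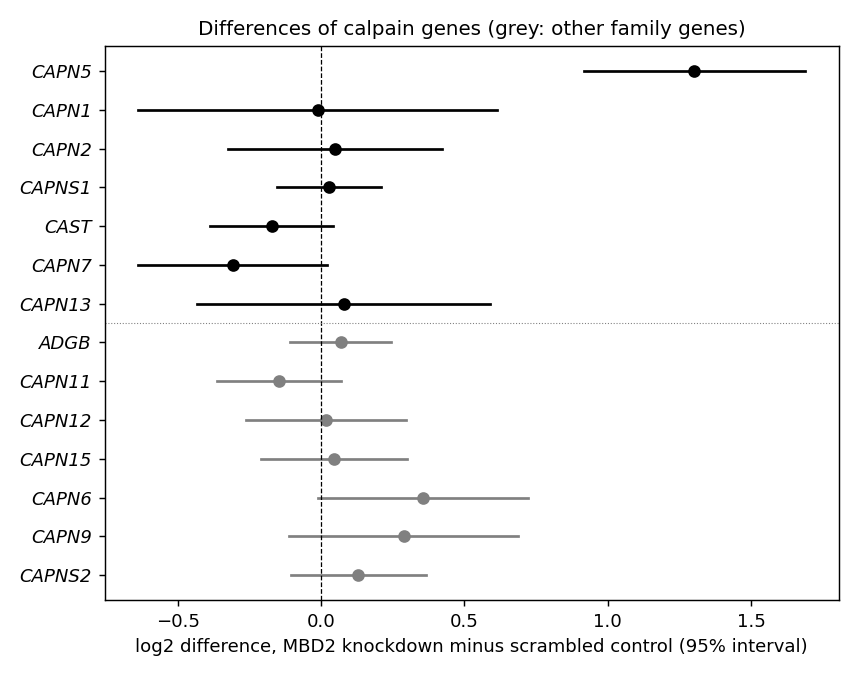
Difference in log2 expression, MBD2 knockdown minus scrambled control, for the 7 calpain genes (black) and for other measured genes of the family (grey). Points are differences of means and lines are 95% confidence intervals from the limma fit (3 clones per group). CAPN5 lies at 1.30, all other points lie between -0.31 and 0.36, and their intervals include 0.

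CAPN7 and CAPN13 are less studied calpains. CAPN7, a relative of the fungal protease PalB that binds the membrane-sorting ESCRT machinery, had log2 values of 8.12, 8.67 and 8.48 in the knockdown clones, against 8.83, 8.66 and 8.70 in the controls. Knockdown clone 1 was the lowest of the 6, and knockdown clone 2 overlapped control clone 2. The difference was -0.31 with an interval of -0.64 to 0.02 (adjusted p = 0.564, limma), and -0.16 without knockdown clone 1. CAPN13, a calpain with EF-hands, had log2 values of 6.61, 7.39 and 7.46 in the knockdown clones, against 7.21, 6.93 and 7.10 in the controls. Knockdown clones 2 and 3 lay above every control and clone 1 below every control. The mean difference was 0.08 (interval -0.43 to 0.59), 0.35 without knockdown clone 1 (adjusted p = 0.166, limma), and -0.07 without knockdown clone 3.

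CAPN1, CAPN2, CAPN7 and CAPN13 shared the lowest clone of each group, though not the full order of clones. In each of these 4 genes knockdown clone 1 was the lowest of its group and control clone 2 the lowest of its own. That held for 11.7% of all genes, and the pattern was noticed after the values were seen. CAPN5 did not share it, since its lowest control was clone 3, and neither did CAPNS1 or CAST.

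Because MBD2 binds methylated CpG dinucleotides, the CpG content of the promoters is given as context; methylation was not measured on these arrays. The RefSeq promoter table (GRCh38.p14, from 250 bases before to 50 after a gene's start) matched 7 of the 8 named genes, all but CAPN5, with 15 windows. The motif searched was CG, which reads the same on both strands, and the median over 35116 windows of all genes was 14. The windows of 2 measured genes with a single start each are printed, since they lie far apart in CpG number, with every CG in capitals. CAPN7 (chr3:15205996-15206295, plus strand) holds 38, and 9.91% of all windows hold as many or more. CAPN13 (chr2:30807397-30807696, minus strand) holds 5, and 33.7% of all windows hold as few or fewer.
CAPN7: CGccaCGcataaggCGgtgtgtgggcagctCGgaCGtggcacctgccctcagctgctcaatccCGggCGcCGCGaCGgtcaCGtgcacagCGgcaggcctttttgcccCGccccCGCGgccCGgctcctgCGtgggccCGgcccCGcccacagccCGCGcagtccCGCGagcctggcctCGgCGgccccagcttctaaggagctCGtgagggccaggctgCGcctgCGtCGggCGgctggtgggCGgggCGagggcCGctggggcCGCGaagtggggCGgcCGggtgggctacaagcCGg
CAPN13: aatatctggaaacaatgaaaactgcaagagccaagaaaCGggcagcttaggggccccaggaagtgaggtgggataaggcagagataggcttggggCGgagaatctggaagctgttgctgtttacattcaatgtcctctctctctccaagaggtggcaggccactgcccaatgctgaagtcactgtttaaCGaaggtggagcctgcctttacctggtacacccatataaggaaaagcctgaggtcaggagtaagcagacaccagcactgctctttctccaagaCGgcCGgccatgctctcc
CAPN10 also has a single window, with 36. In the other 4 genes the count depended on the start used. The windows of CAPN2 held 2 and 45, those of CAPNS1 held 35 and 13, those of CAPN1 held 20 to 28 and those of CAST 3 to 30. The features do not tell which start was in use.

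Of the list of other calpain family genes, 7 of 10 were measured, and 0 passed in either direction. None had an unadjusted p under 0.05 and none separated the groups. CAPN6, the closest relative of CAPN5 and a protein that lacks the catalytic cysteine, had log2 values of 5.35, 5.19 and 5.67 in the knockdown clones, against 4.81, 5.26 and 5.07 in the controls. Its difference of 0.36 (interval -0.01 to 0.72, adjusted p = 0.545, limma) was the largest of the 7 with all clones, with knockdown clone 2 inside the range of the controls, and 0.22 without knockdown clone 3. CAPN9 had the larger difference without knockdown clone 1 (0.41, against 0.38 for CAPN6) and without control clone 1 (0.43, against 0.24). CAPN9, a calpain of the digestive tract, had 0.29 with all clones (interval -0.11 to 0.69), 0.18 without knockdown clone 3 and 0.135 without control clone 3. CAPN9 lay below the lower quartile of features on 4 of 6 arrays. CAPN15, a relative of the fly gene small optic lobes, had 0.04 and CAPN12, known from skin, had 0.02, and without knockdown clone 1 both turned sign, to -0.06 and -0.12. CAPN11, a calpain of the testis, had -0.15, CAPNS2, a second small subunit, had 0.13, and ADGB, which encodes androglobin with its calpain-like domain, had 0.07. These last 3 lay below the lower quartile of features on every array. Without control clone 3 CAPN11 had -0.09, without knockdown clone 1 it had -0.10, and CAPNS2 had 0.05 without control clone 1, 0.20 without control clone 2 and 0.08 without knockdown clone 3. The median of the 7 differences was 0.07, against -0.0043 for all genes tested.

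Known calpain substrates gave no common direction. Of 20 named, 17 were measured, 6 with a higher and 11 with a lower mean in the knockdown clones, a median of -0.03 and 0 past the threshold. The gene with the smallest p was PXN, which encodes the focal adhesion protein paxillin, with log2 values of 7.38, 7.19 and 7.38 in the knockdown clones, against 6.98, 7.12 and 7.14 in the controls. All knockdown values lay above all controls, with a difference of 0.24 (adjusted p = 0.48, limma). PXN was the only 1 of the 17 wholly above the controls, against 6.57% of all genes. It was also the only member of this list with an unadjusted p under 0.05, where 3.93% of all genes were higher at that p. NFKBIA, the inhibitor of NF-kappa-B, had -0.18, and CTNNB1, the adhesion and Wnt protein beta-catenin, had -0.21. Both separated the groups, with all knockdown clones below all controls (adjusted p = 0.595 and 0.624, limma), as did TLN1 (talin, -0.07), which was added after its values were seen. These are 3 of 17 genes wholly below the controls, against 8.87% of all genes. NFKBIA had -0.12 without control clone 1, and CTNNB1 had -0.10 without knockdown clone 1.

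Calpains also act when a torn plasma membrane is resealed, and 11 of 12 genes of a membrane repair list were measured. Of these, 4 had a higher and 7 a lower mean in the knockdown clones, 0 passed, and the median was -0.01. Without knockdown clone 1 the median was -0.11, against -0.0233 for all genes tested. ANXA2, an annexin that binds membranes in the presence of calcium, had log2 values of 4.58, 4.83 and 4.55 in the knockdown clones, against 4.31, 4.26 and 4.13 in the controls. ANXA2 alone of the 11 separated the groups, where 6.57% of all genes lay wholly above the controls. Its difference was 0.42 (adjusted p = 0.315, limma), at levels below the lower quartile on 5 of 6 arrays. S100A10, the partner of ANXA2, had -1.10 (adjusted p = 0.648, limma), but this rested on control clone 3. Log2 values were 7.53, 7.18 and 7.26 in the knockdown clones, against 7.37, 7.79 and 10.10 in the controls, and without control clone 3 the difference was -0.26. S100A11, another calcium-binding partner of annexins, had -0.16, and -0.08 without control clone 3.

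**Figure D3:**
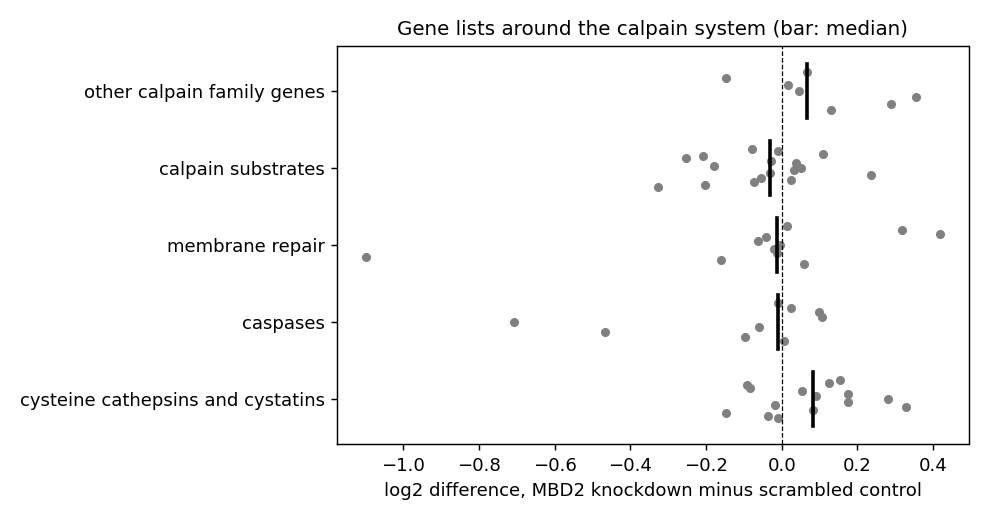
Difference in log2 expression, MBD2 knockdown minus scrambled control, for each measured gene of 5 lists; every point is a gene and black bars are list medians. The medians lie between -0.03 and 0.08, and the points farthest from 0 are S100A10 at -1.10 and CASP4 at -0.71.

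Other cysteine proteases of the cell were set beside the calpains. Of 11 caspases, the proteases of cell death and inflammation, 9 were measured and 0 passed, and the median was -0.01. CASP6, an executioner caspase, had log2 values of 5.73, 5.71 and 5.65 in the knockdown clones, against 6.23, 5.96 and 6.3 in the controls. Every knockdown value lay below every control, with a difference of -0.47 (adjusted p = 0.272, limma). CASP4, an inflammatory caspase that senses bacterial lipopolysaccharide, separated the groups as well, with a difference of -0.71 (adjusted p = 0.45, limma) and of -0.41 without knockdown clone 1. These 2 of 9 were the caspases with an unadjusted p under 0.05, both lower, where 5.45% of all genes were lower at that p. They were also the only 2 wholly below the controls, where 8.87% of all genes were. CASP2 had 0.11, 0.05 without knockdown clone 1 and 0.17 without knockdown clone 2.

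All 15 cysteine cathepsins and cystatins named, the lysosomal proteases and their inhibitors, were measured. The means of 9 were higher and those of 6 lower in the knockdown clones, with a median of 0.08, 0 past the threshold and none at an unadjusted p under 0.05. Without knockdown clone 1 the median was 0.018. CTSH, an aminopeptidase of lysosomes, had 0.28 (adjusted p = 0.558, limma), and 0.15 without control clone 1. It alone of the 15 had all knockdown clones above all controls, as did 6.57% of all genes. The bone cathepsin CTSK had 0.17, and 0.10 without knockdown clone 3, and cystatin C, encoded by CST3, had 0.15.

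The pattern of CAPN5 over the 6 clones was compared with that of 4550 genes whose log2 values spanned at least 0.5. The measure was Pearson's correlation over the 6 arrays, which largely reflects that both genes differ between the groups, so the correlation after subtracting each group's mean is given as well. The most alike was ATP11A, which flips phospholipids across the plasma membrane, with 0.995 over the 6 arrays and 0.981 after subtracting the group means. CA12, a membrane-bound carbonic anhydrase, followed with 0.984 and 0.928. The dim keratin gene KRT15 had 0.983 and 0.898, and VAMP1, a vesicle fusion protein, had 0.982 and 0.917. PDZK1IP1, which encodes a small membrane protein, had 0.978 and 0.742, and the kinase gene SGK2 had 0.978 and 0.722. These values share the arrays and were ranked by the same measure, so they carry no test.

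ATP11A stood at 8.97, 8.94 and 9.29 in the knockdown clones, against 7.48, 7.37 and 6.93 in the controls. As for CAPN5, knockdown clone 3 was the highest and control clone 3 the lowest of the 6. CA12 stood at 8.62, 8.45 and 8.99 in the knockdown clones, against 7.86, 7.69 and 7.22 in the controls, again with both clones numbered 3 at the ends. The differences were 1.80 for ATP11A and 1.10 for CA12, against 0.34 for KRT15 and 0.42 for VAMP1, so genes with like patterns differed in size.

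**Figure D4:**
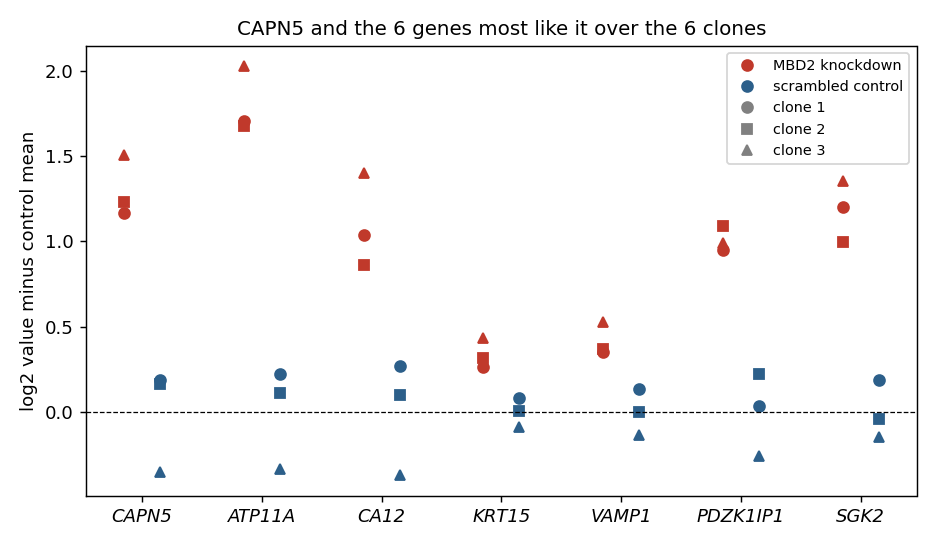
Log2 value minus the control mean in each clone for CAPN5 and the 6 genes most like it by Pearson correlation over 6 arrays, ordered by that correlation from left to right after CAPN5. Red points are MBD2 knockdown, blue points scrambled control, and symbols mark clone numbers within a group. In every gene the knockdown points lie above the control points, from 0.34 (KRT15) to 1.80 (ATP11A) on average.

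The genes next to CAPN5 on chromosome 11 differed less between the groups. Of the 3 measured genes on each side in the RefSeq order, those before it were TSKU, ACER3 and B3GNT6, with differences of 0.25, -0.29 and 0.01. Those after it were OMP, MYO7A and GDPD4, with 0.15, 0.25 and -0.09. OMP, the olfactory marker protein gene, lies within the span of CAPN5, with log2 values of 6.76, 6.25 and 6.38 in the knockdown clones, against 6.47, 6.22 and 6.25 in the controls. These groups overlapped, and the interval of the OMP difference was -0.18 to 0.48. Without knockdown clone 1 that difference was 0.0022, without knockdown clone 2 it was 0.25, and without control clone 1 it was 0.23. GDPD4 had -0.03 without control clone 2 and -0.15 without control clone 3, and B3GNT6 ranged from -0.11 without knockdown clone 1 to 0.07 without knockdown clone 3. MYO7A, an unconventional myosin of the ear and retina, had all knockdown clones above all controls (adjusted p = 0.504, limma), as did 6.57% of all genes. ACER3, a ceramidase, had all of them below (adjusted p = 0.561, limma), as did 8.87% of all genes, with -0.15 without knockdown clone 1. TSKU, a secreted protein, had 0.46 without knockdown clone 1, 0.08 without knockdown clone 2 and 0.14 without control clone 2.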

How the data were processed

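Cytoplasmic RNA of 6 LNCaP clones was measured on 1 array each. The deposited log2 values per feature were made by the authors with RMA, which is named with oligo and limma in the submitters' processing notes; versions, build and filters: not given in the sources used here. The log2 scale was taken from RMA and the range of the values, which were used without further normalization. Of 19712 features, 17334 had 1 gene symbol, 1521 several and 857 none listed. Per gene the feature of the highest mean was used, which left 16704 genes. Groups came from the titles. Knockdown and control were compared in R 4.3.3 with limma 3.58.1 (lmFit, eBayes), two-sided, with Benjamini-Hochberg adjustment over all genes and a threshold of 0.05. The code of the fit was checked on simulated arrays with independent noise and changes larger than that of CAPN5. That check says nothing about smaller differences or about an array that stands apart. The members and lists were chosen with earlier results of these data known. Named were all members, MBD2, all measured genes of the family list, the 3 members of each other list with the smallest p, 3 neighbours on each side of CAPN5 and the 6 genes most like it. Nearest genes came from RefSeq, GRCh38.p14, whose build may differ from that of the arrays. Coordinates are therefore given only for the printed promoter windows. Alternatives were other normalizations, filters, weights and variance models, the replicate number as a block, other feature rules, leaving out each array, and, added after seeing the data, averaging knockdown clones 2 and 3.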

Additional observations from a re-analysis of the deposited data

How the results depend on the processing

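CAPN5 had a higher mean in the knockdown clones under all 17 alternatives. Its differences were 1.12 to 1.40 when each clone was left out in turn and 1.27 to 1.35 otherwise. CAPN5 was picked for its difference and its groups did not overlap, so leaving out a clone could not change the sign. The other alternatives reused the same arrays, so these ranges describe its size and are no separate support. With array weights, where knockdown clone 1 weighed 0.252 and clone 2 weighed 3.43, its difference was 1.27, and without knockdown clone 1 it was 1.37. CAPN7 and CAST kept their sign under all 17. CAPN1 changed sign after repeated quantile normalization (0.041), cyclic loess (0.037) and array weights (0.23), and ranged from -0.25 to 0.22 with single clones left out. With knockdown clones 2 and 3 averaged, CAPN2 had -0.022 and CAPN13 -0.057. With single clones left out, CAPN2 ranged from -0.073 to 0.19, CAPN13 from -0.075 to 0.35 and CAPNS1 from -0.017 to 0.062. None of the 6 genes other than CAPN5 passed under any alternative.

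The count of all genes past the threshold was 0, and 1 after quantile normalization, 1 after cyclic loess, 325 with array weights (133 higher and 192 lower), 2 at an adjusted p under 0.1, and 0 to 70 with single clones left out (70 without knockdown clone 1, 7 without control clone 1). In the lists 1 gene passed, ANXA2 of membrane repair with array weights (adjusted p = 0.0424). With the replicate number as a block 0 genes passed and the CAPN5 difference was 1.30. Deviations of same-numbered clones correlated at -0.025, -0.189 and 0.174 over genes. The labels do not say that the numbers pair the clones, and whether they do was not tested. The causes were not tested.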

Other observations

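The feature shared by CAPN10, a calpain gene studied in type 2 diabetes, and the receptor gene GPR35 cannot be assigned to either gene. Log2 values were 5.51, 5.48 and 5.54 in the knockdown clones, against 5.62, 5.64 and 5.55 in the controls. All knockdown values lay below all controls, as in 8.87% of all genes tested. The difference was 0.09 on average (interval -0.26 to 0.08 for knockdown minus control, adjusted p = 0.731 in limma over all features).

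Some genes of the lists varied more between clones of a group than between groups, and these were chosen after their values were seen. CASP8, an initiator caspase, had log2 values of 6.50, 7.48 and 8.0 in the knockdown clones, against 7.72, 6.77 and 7.78 in the controls. VIM, the intermediate filament vimentin and a calpain substrate, had 8.29, 9.16 and 9.41 in the knockdown clones, against 9.75, 8.68 and 9.40 in the controls. In both genes knockdown clone 1 and control clone 2 were the lowest of their groups, as in CAPN1, CAPN2, CAPN7 and CAPN13. ANXA1, an annexin, had other lowest clones, with 6.25, 4.18 and 4.89 in the knockdown clones, against 3.98, 5.18 and 5.22 in the controls.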
